A study of Mus musculus with 12 samples.

Results

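Open chromatin around 10 genes of transforming growth factor beta (TGF-beta) signalling, namely Tgfb1, Tgfbr1, Tgfbr2, Smad2, Smad3, Smad4, Smad6, Smad7, Ski and Skil, was followed in brain macrophages of bone marrow chimeric mice. Every ATAC-seq peak whose nearest transcription start site, in the annotation deposited with the peaks, belonged to one of these genes was taken. This gave 128 of 60288 merged peaks in untreated mice and 99 of 54953 in mice given lipopolysaccharide (LPS), a bacterial endotoxin. All mice were wild-type C57BL/6J animals that had been irradiated with 950 cGy and reconstituted with donor bone marrow, and the labels give 3.5 or 9 months of reconstitution without saying which mouse had which. Engrafted cells carrying CD45.1 and host microglia carrying CD45.2 were sorted from the same brains as cells with low CD45, with CD11b and without Ly6C and Ly6G. The 12 libraries form 4 groups of 3, the engrafted cells and the host microglia of untreated mice 4, 5 and 6 and those of mice 1, 2 and 3, which received 2.5 mg/kg LPS and were killed 12 h later. Both populations had lived in an irradiated brain, but only the host microglia had themselves been irradiated, since the marrow was given afterwards. Irradiation of the cells and their origin therefore cannot be told apart, and no unirradiated microglia were part of the comparison.

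The ligand TGF-beta1, encoded by Tgfb1, binds the type II receptor Tgfbr2, which activates the type I receptor Tgfbr1. The active receptor phosphorylates the receptor-regulated factors Smad2 and Smad3, which enter the nucleus with the common partner Smad4. Smad6 and Smad7 inhibit the pathway, and Ski and Skil (SnoN) are corepressors that bind Smad complexes. Microglia depend on TGF-beta for their identity, and blocking the receptor in the adult brain shifts them away from it. The comparisons ask whether cells of marrow origin that reside in the brain have the same open regions at these genes as host microglia, at rest and after a systemic challenge.

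Values are normalized tags per peak, the deposited tags divided by a size factor for each library, and log2 differences are positive where CD45.1 was higher. Distances are to the nearest annotated start of the gene, which for an inner start can be less than the distance to its outermost start. In the mixed signal of a sorted population, a smaller share of cells with an open region and a less open region in every cell cannot be told apart. Untreated libraries held 8392877.5 to 9107770 tags and LPS libraries 2966364 to 6556594.5, so values after LPS carry more counting error. The CD45.2 library of untreated mouse 4 stood apart, with 9.30% of its tags in its own peaks against 26% and 27.2% in the other host libraries at rest. Tags were also summed over the genes of fixed marker lists. The monocyte and border macrophage list (7 of 8 genes with a peak, Lyve1 without) ranged from 833.3 to 840.5 normalized tags in CD45.1 and from 347.5 to 379 in CD45.2 at rest. After LPS the ranges were 531.5 to 597.3 and 217.5 to 251.2. At rest 4 of the 7 were higher in CD45.1, among them Cd38 (250 and 28.2 tags) and Ms4a7 (161 and 61.4). Ccr2 (60.9 and 52.1) and Ly6c2 (10.8 and 12.1) did not pass. Engrafted cells are of marrow origin too, so this list cannot tell them from monocytes. The neuron list (4 of 6, Gad1 and Neurod6 without) ranged from 79.7 to 89.9 tags in CD45.1 and from 218.8 to 245.6 in CD45.2 at rest. There 3 of the 4 were higher in CD45.2, and Slc17a7 (49.7 and 46.9) did not pass. After LPS (5 of 6, Neurod6 without) the ranges were 30.5 to 35.5 and 81.3 to 117, and 2 of the 5 were higher in CD45.2. The T, B and NK cell genes with a peak, 4 in number, summed to 244.2 to 300.4 tags in CD45.1 against 155.5 to 167.5 in CD45.2 at rest, where 3 of the 4 were higher in CD45.1, and to 66.3 to 84.1 against 62.5 to 78.3 after LPS. The endothelial list (4 of 5, Tek without) ranged from 328.1 to 382.8 against 468.1 to 549 at rest and from 290.7 to 341.4 against 352.3 to 369.2 after LPS. In it only Cdh5 passed at rest (37.7 and 215 tags), and Flt1 went the other way without passing (228 and 180). The astrocyte and oligodendrocyte list (7 of 8, Olig2 without) ranged from 1045 to 1097 against 1114 to 1137 at rest. Most of these tags lay at Mbp (772 and 730), which did not pass. Of the 7, 2 were higher in CD45.2, Mog (118 and 214) and Aldh1l1 (38.8 and 72.7), and none was higher in CD45.1. After LPS only Mog passed (40.7 and 83.3). The neutrophil list held at most 80.2 tags at rest (2 of 6 genes with a peak, S100a8, Ly6g, Mpo and Camp without) and at most 103 after LPS (5 of 6, Mpo without). In it S100a9 was higher in CD45.2 at rest (17.5 and 39.6), and none passed after LPS. All 10 genes of the brain macrophage and microglia list had a peak among the merged peaks of each treatment, which pool the populations. The list ranged from 2438 to 3131 tags at rest in CD45.1 and from 3896 to 4231 in CD45.2. Of the 10, 2 were higher in CD45.2, among them Sall1 (111 ± 82.4 and 1042 ± 65.2 tags, log2 difference -3.22). The part of other cell types in the differences below was not tested.

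The member regions that differed most between the populations lay away from promoters, and the DNA of 6 of them is printed to show what was open in one population and not, or less, in the other. Each line is a window of 200 bases of the plus strand of mm9, centred on the peak of untreated mice and named by the distance of that peak from the start site. Capitals mark matches to 8 short motifs searched on both strands: the Smad palindrome GTCTAGAC, the Smad box CAGACA, the PU.1 site GAGGAAGT, the AP-1 site TGANTCA, the C/EBP site TTGCNNAA, the RUNX site TGTGGTT, the E-box TCACGTG of MITF and TFE factors, and the NF-kB site GGGANNTCC.
Skil -10.9 kb (chr3:30982939-30983138): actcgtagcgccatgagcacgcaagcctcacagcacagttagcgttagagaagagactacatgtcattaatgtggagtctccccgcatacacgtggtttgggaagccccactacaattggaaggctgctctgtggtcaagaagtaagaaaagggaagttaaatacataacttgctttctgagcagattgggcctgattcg
Tgfbr1 -59.2 kb (chr4:47306800-47306999): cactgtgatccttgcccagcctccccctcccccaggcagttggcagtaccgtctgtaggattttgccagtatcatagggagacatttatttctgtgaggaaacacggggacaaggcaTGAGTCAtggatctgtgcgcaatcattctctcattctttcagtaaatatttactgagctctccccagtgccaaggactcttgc
Tgfbr1 -6.0 kb (chr4:47360008-47360207): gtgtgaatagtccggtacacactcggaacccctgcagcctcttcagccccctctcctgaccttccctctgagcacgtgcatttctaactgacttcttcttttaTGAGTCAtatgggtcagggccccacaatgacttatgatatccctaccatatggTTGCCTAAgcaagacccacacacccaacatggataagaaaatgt
Tgfbr2 -3.0 kb (chr9:116087367-116087566): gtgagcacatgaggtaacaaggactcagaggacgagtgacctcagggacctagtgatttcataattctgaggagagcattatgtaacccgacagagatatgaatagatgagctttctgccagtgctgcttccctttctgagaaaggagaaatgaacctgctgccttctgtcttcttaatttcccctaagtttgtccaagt
Tgfbr2 -163.2 kb (chr9:116247622-116247821): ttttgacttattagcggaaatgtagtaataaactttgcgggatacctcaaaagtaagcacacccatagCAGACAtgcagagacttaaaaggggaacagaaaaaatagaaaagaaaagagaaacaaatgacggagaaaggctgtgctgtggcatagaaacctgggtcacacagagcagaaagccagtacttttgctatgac
Smad3 73.5 kb (chr9:63532213-63532412): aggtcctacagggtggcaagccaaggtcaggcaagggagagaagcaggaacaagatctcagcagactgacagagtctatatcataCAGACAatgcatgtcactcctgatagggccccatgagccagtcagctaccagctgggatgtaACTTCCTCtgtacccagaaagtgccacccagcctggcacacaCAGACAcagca
Both windows upstream of Tgfbr1 held the AP-1 letters TGAGTCA near their centres, and the one at -6.0 kb also held a C/EBP match. The Smad3 window held the Smad box at 2 places and 1 PU.1 match on the minus strand, and the Tgfbr2 window at -163.2 kb held 1 Smad box. None of the 8 motifs matched in the Skil window or in the Tgfbr2 window at -3.0 kb. Among windows of this length on all peaks of untreated mice, 8.11% held the AP-1 letters, 9.82% the C/EBP letters, 9.45% the PU.1 letters and 17.7% the Smad box. In the 128 member windows these shares were 7.81%, 10.2%, 10.9% and 20.3%, and a match describes letters, not a bound factor. The RUNX letters were in 10.2% of the member windows and 5.65% of all, the E-box in 3.12% and 2.87%, the NF-kB letters in 2.34% and 3.33%, and the Smad palindrome in 0.781% and 0.275%.

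The promoters of all 10 genes were open in both populations at rest, and no difference between the populations passed the test. Of the 128 peaks, 16 (12.5%) were promoter peaks, 65 (50.8%) lay in introns and 43 (33.6%) between genes, against 22.2%, 38.9% and 32.6% of all peaks. In each gene the strongest promoter peak was in the graft and host peak lists of all 3 untreated mice, except for Skil, whose strongest promoter peak, 0.4 kb upstream of the start, was listed for 1 CD45.1 and 2 CD45.2 libraries. Per kb of peak, the most open were those of the type I receptor gene Tgfbr1, with 1523 normalized tags in CD45.1 against 1336 in CD45.2, and of the corepressor genes Ski (1340 and 1176) and Skil (1227 and 1290). The least open was that of the ligand gene Tgfb1, with 555 and 556 tags per kb. The median over all 13366 promoter peaks was 480.3, a set not limited to the strongest peak of each gene and so not like for like. The order of the genes between these ends rests on small gaps and was not tested.

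**Figure D1:**
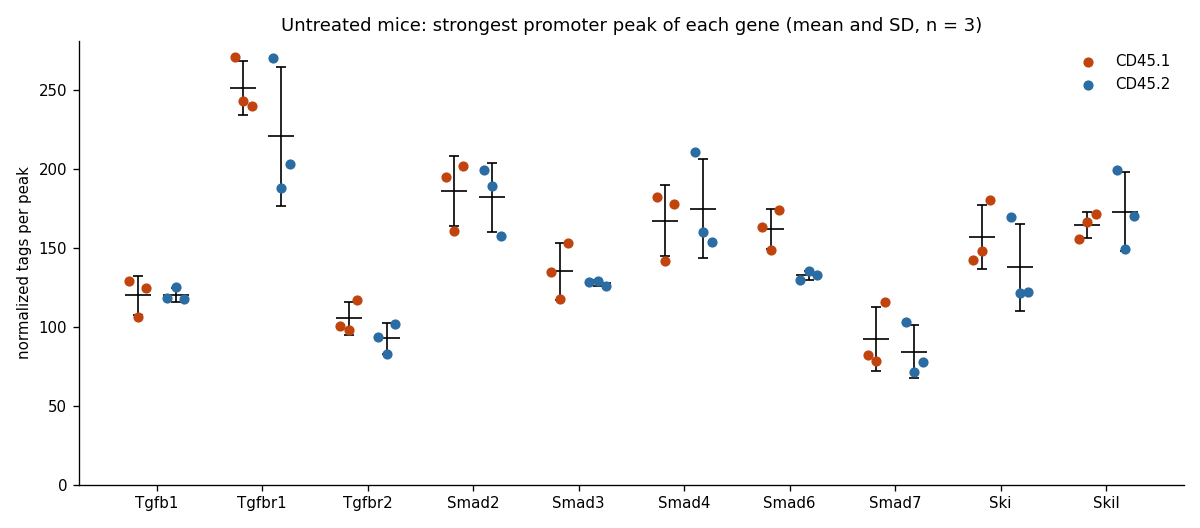
Normalized tags (y axis) in the strongest promoter peak of each of the 10 genes (x axis) in untreated mice, with points for mice and the mean and SD of 3 libraries per population. CD45.1 and CD45.2 points overlap at every gene but Smad6, where all CD45.1 points lie above.

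At the Tgfbr1 promoter (chr4:47365937-47366101, overlapping an exon) the CD45.1 libraries of mice 4, 5 and 6 held 271.0, 243.2 and 239.6 normalized tags and the CD45.2 libraries 270.4, 187.7 and 203.3. The promoter of Tgfbr2 (chr9:116084328-116084465) held 105 ± 10.4 in CD45.1 and 92.6 ± 9.73 in CD45.2 (SD, n = 3), and that of Tgfb1 (chr7:26471818-26472033) held 119.9 ± 12.4 and 120.1 ± 4.28. Ranges of the populations overlapped at each of these receptor and ligand promoters. Among the 10 promoter peaks, log2 differences ran from -0.06 at Skil to 0.29 at Smad6, with adjusted p from 0.294 to 0.988 (DESeq2), and none passed by edgeR or at an unadjusted p under 0.05. For Smad6 the values were 162 ± 12.5 and 132 ± 2.82, with a 95% interval of the log2 difference from -0.03 to 0.61. Intervals of the other 9 reached from -0.38 to 0.59, and differences within these intervals are not excluded. Promoters of the signal transducers Smad2, Smad3 and Smad4 held 186 ± 22.1, 135 ± 17.9 and 167 ± 22.3 tags in CD45.1 and 182 ± 21.8, 128 ± 1.72 and 175 ± 31.3 in CD45.2. The inhibitor Smad7 had 92.0 ± 20.4 and 84.1 ± 16.9. After LPS the strongest promoter peak of each gene was chosen anew. None of these 10 peaks passed, with log2 differences from -0.37 (Smad6) to 0.26 (Tgfbr2) and adjusted p from 0.595 to 0.974 (DESeq2). For Smad6 this peak lay at -0.035 kb, against -0.993 kb at rest, and for Skil at -0.215 kb, against -0.432 kb. The Smad6 values at rest and after LPS therefore belong to different peaks. After LPS the Smad6 peak at -0.974 kb had a log2 difference of -0.25 (adjusted p = 0.798, DESeq2).

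Away from the promoters, 11 member peaks differed between engrafted cells and host microglia at rest, and all but 2 of them were more open in the engrafted cells. They lay at both receptor genes, at Smad3, at the inhibitors Smad6 and Smad7 and at Skil, and none lay at Tgfb1, Smad2, Smad4 or Ski by DESeq2. By edgeR 12 were higher in CD45.1 and 5 in CD45.2, among the latter 1 each of Smad2, Smad4 and Ski. Shares of all peaks were counted only for the DESeq2 fit of all libraries without a block. Counts by edgeR or in any other alternative, here and below, therefore have no share to be set against. The count filter passed 125 of the 128 peaks, the 3 others being 2 of Ski and 1 of Tgfbr2. With an adjusted p under 0.01 and over 4-fold, 2 of 125 were higher in CD45.1, both at Tgfbr1, where 3.78% of all 59170 peaks tested were, and 1 was higher in CD45.2, at Smad7, where 2.65% were. With an adjusted p under 0.05 and no limit on the fold, 9 of 125 were higher in CD45.1 and 2 were higher in CD45.2, against 8.54% and 6.32% of all peaks. The median log2 difference of the 125 was 0.06, against 0.00 for all peaks, and the median size of the difference 0.27 against 0.33.

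With the mouse as a block in the model, the 2 calls at Tgfbr1 became 1, and the 9 peaks higher in CD45.1 became 5, since those of Smad6, Skil at 14.3 kb and Smad3 at -22.7 and 41.7 kb no longer passed. Without the CD45.1 library of mouse 4 or the CD45.2 library of mouse 5 these 9 also became 5, and without the CD45.2 library of mouse 4, the one that stood apart, they were 8. How the calls over all peaks changed under these alternatives was not counted.

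**Figure D2:**
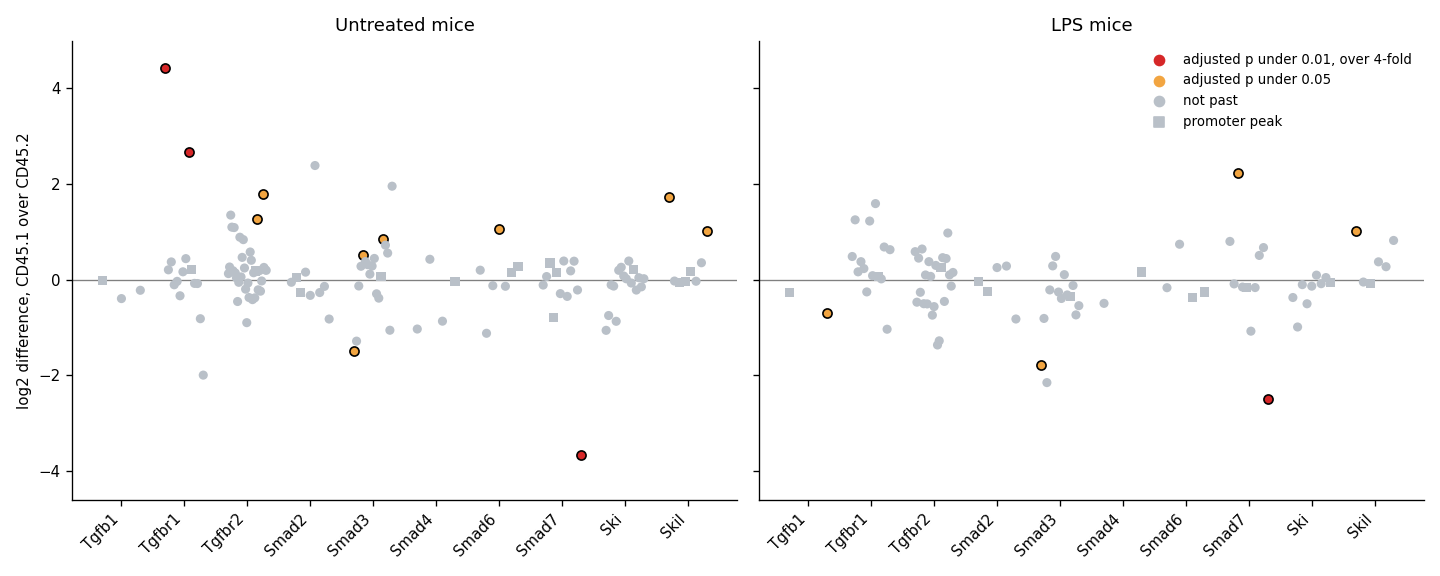
Log2 difference of CD45.1 over CD45.2 (y axis) for every member peak that passed the count filter, by gene (x axis) and in the order of genome position within a gene, at rest (left, 125 peaks) and after LPS (right, 89 peaks). Promoter peaks (squares) lie between -0.78 and 0.35 at rest, and the peaks past the limits (coloured, with a black edge) are all distal.

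A pair of regions upstream of Tgfbr1 was open in the engrafted cells and nearly closed in host microglia at rest. The farther one, 59.2 kb upstream (chr4:47306826-47306972), lies in an intron of Col15a1, the neighbouring collagen gene. It held 22.9, 14.1 and 24.5 normalized tags in the CD45.1 libraries of mice 4, 5 and 6 and 0.0, 0.8 and 1.2 in the CD45.2 libraries. The groups stood far apart, and since no host library held more than 3 tags the difference is given as at least 6.36-fold higher in CD45.1 (adjusted p = 0.000137, DESeq2). The nearer one, 6.0 kb upstream between genes (chr4:47360048-47360167), held 23.8, 12.3 and 21.8 tags in CD45.1 and 0.0, 3.5 and 4.9 in CD45.2. It too was higher in CD45.1 in each of the 3 mice, with a log2 difference of 2.68 (SE 0.69, adjusted p = 0.00145, and 0.0137 with the mouse as a block). The farther region was in the peak lists of 2 CD45.1 libraries and the nearer in that of 1, and neither was listed for a CD45.2 library. Counts at both were low. The other 12 Tgfbr1 peaks did not pass, with log2 differences from -1.99 to 0.44.

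Tgfbr2, the type II receptor gene, had the most peaks of any member, 35, and 2 of them were more open in engrafted cells. At -3.0 kb (chr9:116087355-116087577), in the intergenic stretch before the gene, CD45.1 libraries held 171.2, 185.3 and 193.3 tags and CD45.2 libraries 90.9, 60.0 and 80.7. This strong peak was open in every library, and every CD45.1 value lay above every CD45.2 value, by 1.27 on the log2 scale (SE 0.19, adjusted p = 2.74e-09). Far upstream at -163.2 kb (chr9:116247636-116247806), CD45.1 libraries held 25.7, 27.4 and 49.6 tags and CD45.2 libraries 5.7, 12.0 and 10.1, a log2 difference of 1.79 (SE 0.45, adjusted p = 0.00129). It was listed as a peak in all 3 CD45.1 libraries and in no CD45.2 library. The other 32 tested peaks of the gene had adjusted p of 0.0580 and more.

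The corepressor gene Skil had a region at -10.9 kb (chr3:30982959-30983118) that was open in both populations and more so in engrafted cells. CD45.1 libraries held 124.5, 105.0 and 129.6 tags and CD45.2 libraries 32.0, 27.9 and 47.5, a difference of 1.73 on the log2 scale (SE 0.25, adjusted p = 5.90e-10). The groups did not overlap, and the peak was listed in all 6 libraries. In an intron at 14.3 kb (chr3:31008172-31008313) the means were 46.1 ± 9.33 and 22.6 ± 1.97 (log2 difference 1.03, adjusted p = 0.0171, and 0.111 with the block). The related gene Ski had 18 peaks, and its smallest adjusted p, 0.209, was at an intronic peak 59.6 kb past the start, with 18.95 ± 5.06 tags in CD45.1 against 31.8 ± 1.86 in CD45.2.

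The inhibitory gene Smad7 had the region most in favour of host microglia. At 47.0 kb past the start of Smad7 (chr18:75573936-75574069), downstream of the gene, CD45.1 libraries held 9.8, 7.8 and 1.1 tags and CD45.2 libraries 94.2, 72.4 and 67.4. It was listed in all 3 host libraries and in no graft library, and the log2 difference was -3.67 (SE 0.43, adjusted p = 8.47e-15), a 12.7-fold higher level in CD45.2. The other 11 Smad7 peaks had log2 differences from -0.78 to 0.39 and none passed. The other inhibitor, Smad6, had 1 peak that passed, in an intron at 32.6 kb (chr9:63837128-63837319) that overlaps an exon of a minor transcript in GENCODE. It held 53.6 ± 5.10 tags in CD45.1 against 25.2 ± 6.55 in CD45.2 (log2 difference 1.06, adjusted p = 0.00723, and 0.0511 with the block).

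Among the signal transducers, Smad3 had peaks that passed in both directions and Smad2 and Smad4 had none. At 73.5 kb past its start, in an intron of Smad3 (chr9:63532220-63532404), CD45.1 libraries held 24.3, 19.2 and 9.8 tags and CD45.2 libraries 52.4, 55.0 and 43.4, a log2 difference of -1.49 (SE 0.35, adjusted p = 0.000499). This region was listed in all 3 host libraries and in no graft library. Smad3 peaks at 41.7 kb (141.0 ± 17.7 and 98.3 ± 8.18 tags, adjusted p = 0.0380) and at -22.7 kb (51.7 ± 13.2 and 27.7 ± 4.84, adjusted p = 0.0487) were instead higher in CD45.1, and with the block their adjusted p were 0.168 and 0.163. Smad4 came nearest to passing in an intron at 10.1 kb, with 26.9 ± 11.1 tags in CD45.1 against 49.3 ± 4.72 in CD45.2 (adjusted p = 0.0602, and 0.00958 by edgeR). The smallest adjusted p at Smad2 was 0.155, at a peak with 6.48 ± 3.26 and 1.59 ± 0.673 tags. Tgfb1 had only 3 peaks and none neared the limit, the smallest adjusted p being 0.595 at an intronic peak 2.3 kb past the start.

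**Figure D3:**
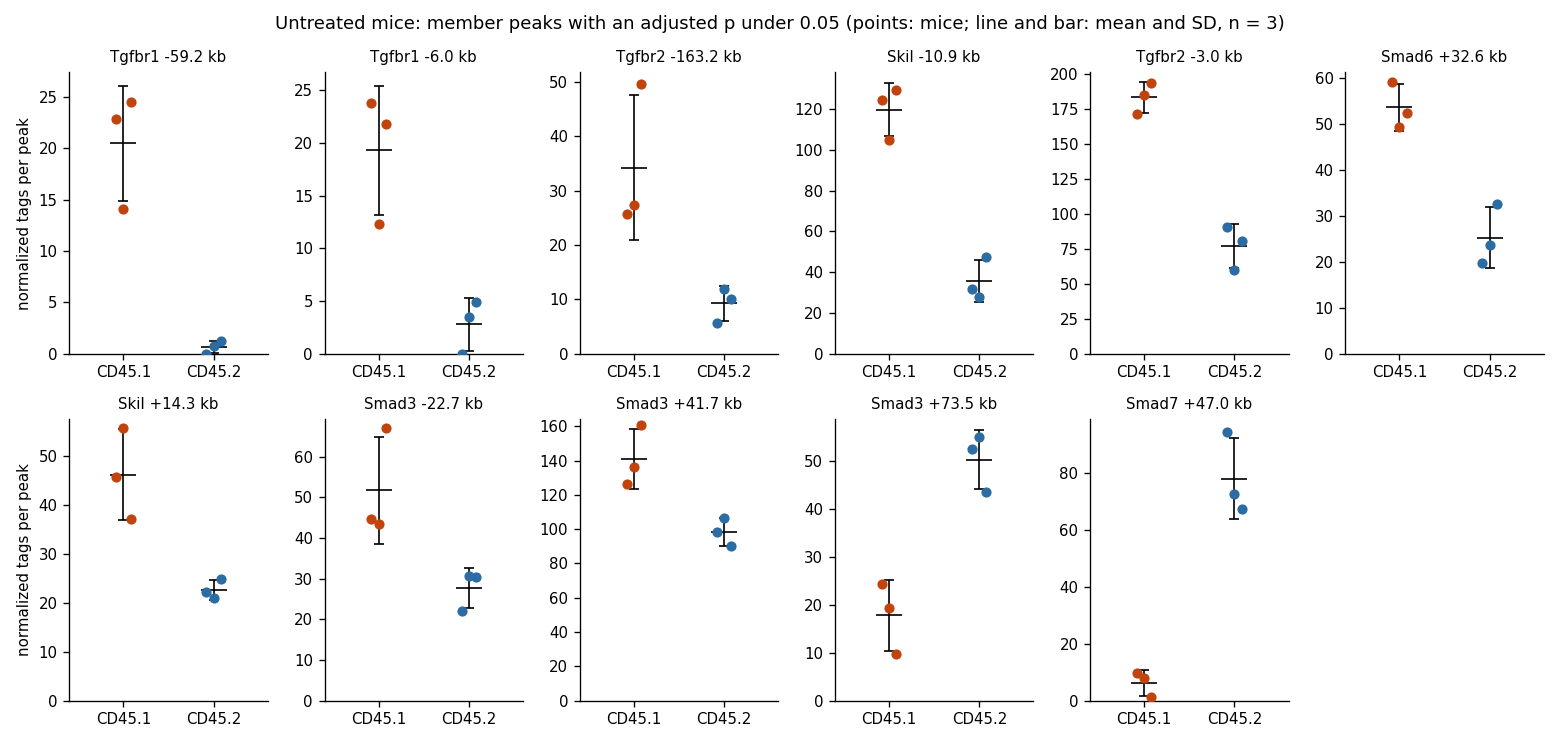
Normalized tags (y axis) in the 11 member peaks with an adjusted p under 0.05 in untreated mice, with points for mice 4, 5 and 6 and the mean and SD of each population (x axis). In every panel the populations do not overlap, with CD45.2 above CD45.1 only at Smad3 +73.5 kb and Smad7 +47.0 kb.

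Summed over all peaks of a gene, the loci differed little. Only Tgfbr2 passed at rest, with 1422.0, 1493.4 and 1416.5 tags in CD45.1 and 1151.7, 1226.4 and 1255.6 in CD45.2, a log2 difference of 0.25 (SE 0.08, adjusted p = 0.0180). Among all loci, 7.35% were higher in CD45.1 and 7.46% in CD45.2. The Tgfbr2 value was past the limit neither with the block (adjusted p = 0.0998) nor without any single library but the CD45.1 library of mouse 6 (adjusted p from 0.0712 to 0.110). The other 9 loci had log2 differences between -0.19 (Smad4) and 0.24 (Smad6), with adjusted p from 0.161 to 0.974. At Tgfbr1, 856 ± 62.5 and 788 ± 4.93 tags gave a log2 difference of 0.12, and at Smad7, 462 ± 31.9 and 519 ± 11.1 gave -0.17.

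**Figure D4:**
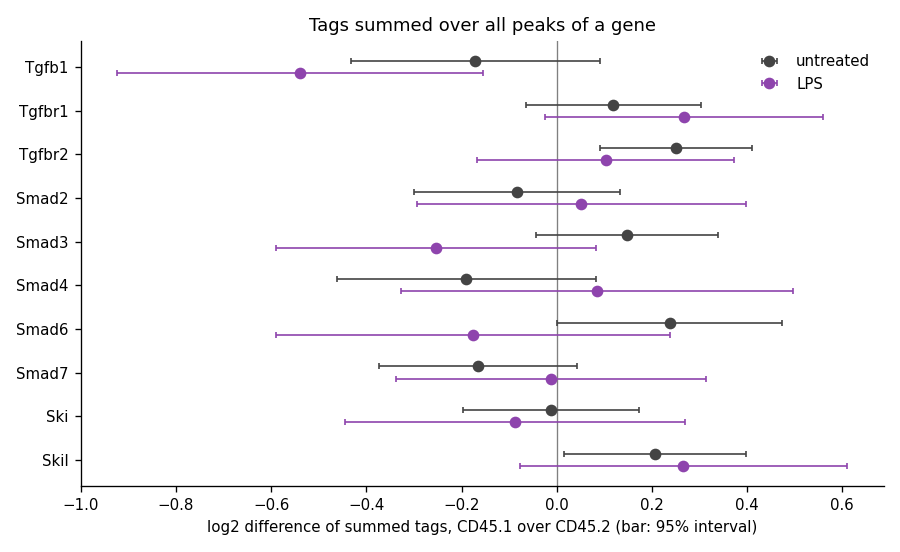
Log2 difference of tags summed over all peaks of a gene, CD45.1 over CD45.2 (x axis), for the 10 genes (y axis) at rest and after LPS, with 95% intervals. All values lie between -0.54 and 0.27, and all intervals but 4, those of Tgfbr2, Smad6 and Skil at rest and of Tgfb1 after LPS, include 0.

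After LPS, fewer member peaks passed, in shallower libraries. Of 99 peaks, 89 passed the count filter, and 5 differed with an adjusted p under 0.05. Higher in CD45.1 were 2 (4.08% of all 49180 peaks were), and higher in CD45.2 were 3 (2.38% of all). With over 4-fold and an adjusted p under 0.01, none was higher in CD45.1 (1.78% of all), though 1 was by edgeR and 1, at Smad7 -13.8 kb, at an unadjusted p under 0.05, and 1 was higher in CD45.2 (1.19% of all), again the distal Smad7 region. With the mouse as a block these counts were 0 and 1 at an adjusted p under 0.05 and 0 for the call, and without any single library the call was also lost. At an adjusted p under 0.05, leaving out any single library left 0 or 1 peak higher in CD45.1 and 0 to 2 higher in CD45.2.

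The Smad7 region at 47.0 kb held 3.2, 2.6 and 3.8 tags in CD45.1 libraries of mice 1, 2 and 3 and 24.5, 19.6 and 12.8 in CD45.2 libraries after LPS. As at rest, the groups were far apart, with a log2 difference of -2.50 (SE 0.67, adjusted p = 0.00552, and 0.0382 with the block). A second Smad7 region, at -13.8 kb, was a peak in the LPS set only and held 16.02 ± 5.82 tags in CD45.1 against 3.07 ± 1.56 in CD45.2 (log2 difference 2.22, adjusted p = 0.0259, and 0.127 with the block). Skil at -10.9 kb stayed higher in CD45.1, with 61.5, 50.9 and 57.1 tags against 39.4, 26.2 and 23.2 (log2 difference 1.01, adjusted p = 0.0223, and 0.167 with the block). Smad3 at 73.5 kb stayed lower, with 2.8, 7.8 and 9.9 tags against 12.3, 28.3 and 26.7 (log2 difference -1.79, adjusted p = 0.0252, and 0.129 with the block). At Smad7 47.0 kb, Skil -10.9 kb and Smad3 73.5 kb the direction was that seen at rest.

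The ligand gene Tgfb1 had a peak that passed after LPS. In an intron, 2.3 kb past the start (chr7:26474236-26474488), CD45.1 libraries held 82.5, 57.4 and 66.5 tags and CD45.2 libraries 112.1, 118.6 and 105.1, without overlap (log2 difference -0.69, SE 0.23, adjusted p = 0.0402, and 0.215 with the block). At rest the intronic peak had 128 ± 31.3 tags in CD45.1 against 151 ± 24.8 in CD45.2. The interaction of population and treatment did not pass at this or any other matched member peak. Summed over its peaks, the locus had a log2 difference of -0.54 (adjusted p = 0.0723) after LPS, which passed by edgeR only (adjusted p = 0.0393). No member locus passed after LPS by DESeq2 at an adjusted p under 0.05, where 4.08% of all loci were higher in CD45.1 and 2.98% in CD45.2. Tgfb1 was the 1 member locus with an unadjusted p under 0.05. The other members with no peak that passed had their smallest adjusted p at 0.343 (Ski), 0.435 (Tgfbr2), 0.595 (Smad6), 0.646 (Smad2) and 0.763 (Smad4).

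Both Tgfbr1 regions also held more tags in CD45.1 than in CD45.2 after LPS in each of the 3 mice, differences that passed by edgeR (adjusted p = 0.0219 at -59.2 kb and 0.00800 at -6.0 kb) and not by DESeq2. At -59.2 kb the values were 18.6, 18.3 and 24.1 against 3.5, 9.6 and 11 (adjusted p = 0.150), and at -6.0 kb 16.6, 22.2 and 18.4 against 1.8, 6.1 and 8.9 (adjusted p = 0.0702). In the peak lists the farther region was in all 3 CD45.1 and 2 CD45.2 libraries after LPS, and the nearer in all 3 and 1.

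Peaks matched between treatments (74 member pairs, of which 73 passed the filter) were compared on a common scale. LPS against untreated raised 4 member peaks in CD45.1 and 6 in CD45.2 and lowered 2 in each, at an adjusted p under 0.05 and over 2-fold. Over all 39235 matched peaks, 6.78% rose and 4.93% fell in CD45.1, and 7.69% rose and 3.69% fell in CD45.2. The median log2 response of the members was -0.12 for engrafted cells and 0.01 for host microglia, against 0.00 and -0.01 for all peaks. Peaks of the LPS set are wider, with a median of 176.5 bp against 144 bp over the member pairs, and treatment and peak set cannot be told apart. With the widths as an offset, none of the 4 peaks that rose and neither of the 2 that fell in CD45.1 was past the limit, and other peaks were, with 2 up (Skil -0.2 kb and Smad7 -4.0 kb) and 1 down (Tgfbr2 35.6 kb). In CD45.2, 4 of the 6 that rose passed with the offset, Tgfbr2 at 90.6 kb did not, Smad3 at 67.3 kb had no adjusted p, and Skil -0.2 kb and Smad3 -22.7 kb came in. Of the 2 that fell in CD45.2, Smad7 at 47.0 kb passed with the offset and Tgfbr1 at 12.2 kb did not.

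The largest response of a member peak was at Tgfbr1 -59.2 kb in host microglia. On the common scale its CD45.2 libraries held 0.0, 0.5 and 0.8 tags at rest and 5.0, 13.9 and 16.2 after LPS, at least 5.41-fold higher (adjusted p = 0.000104). In CD45.1 it held 15.2, 9.5 and 16.1 at rest and 27.0, 27.2 and 35.7 after LPS, a log2 response of 1.17 (SE 0.41, adjusted p = 0.0270, and 0.0607 with the width offset). Host values after LPS overlapped those of the graft at rest. At -6.0 kb the CD45.2 libraries went from 0.0, 2.4 and 3.3 to 2.5, 8.8 and 13.1 tags (log2 response 2.15, SE 0.66, adjusted p = 0.0108), with 1 LPS library inside the untreated range, and CD45.1 from 12.8 ± 4.02 to 28.1 ± 4.56 (adjusted p = 0.0556). In an intron 12.2 kb past an inner start, the CD45.2 level fell by 1.36 on the log2 scale, from 18.4 ± 2.47 to 6.54 ± 3.81 tags (adjusted p = 0.0385, and 0.115 with the width offset).

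Upstream of the inhibitor gene Smad7, 1 region passed in each population and the other population was short of 2-fold there. At -4.0 kb CD45.2 rose from 38.2 ± 3.39 to 78.6 ± 9.48 tags (log2 response 1.03, adjusted p = 0.000210) and CD45.1 held 39.3 ± 6.60 and 71.0 ± 6.59 (0.85, adjusted p = 0.00350, short of 2-fold). At -24.4 kb CD45.1 rose from 35.6 ± 4.78 to 71.7 ± 5.31, at the 2-fold limit (log2 response 1.00, adjusted p = 0.000817), and CD45.2 held 39.2 ± 3.40 and 76.9 ± 20.0 (0.92, adjusted p = 0.00198). The peak at -24.4 kb was 117 bp wide at rest and 208 bp after LPS, and with the width offset its response in CD45.1 was 0.44 (adjusted p = 0.206). Beyond the gene, at 47.0 kb, CD45.2 fell from 62.6, 49.3 and 45.6 to 35.3, 28.4 and 18.8 tags (log2 response -1.002, adjusted p = 0.0288), while CD45.1 held 4.15 ± 3.05 and 4.72 ± 0.855. At Tgfb1 2.3 kb, CD45.2 held 101.4 ± 15.6 and 163 ± 8.53 tags (0.69, adjusted p = 0.00369, short of 2-fold).

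Smad3 and Tgfbr2 each had regions that went in either direction. At Smad3 67.3 kb, CD45.1 rose from 2.38 ± 0.458 to 10.5 ± 3.21 tags (adjusted p = 0.00650) and CD45.2 from 5.59 ± 2.14 to 17.7 ± 4.15 (adjusted p = 0.0108), in a peak 95 bp wide at rest and 168 bp wide after LPS. With the width offset the adjusted p in CD45.1 was 0.0570, and CD45.2 had none. Upstream at -35.9 kb CD45.2 rose from 16.8 ± 7.67 to 36.5 ± 3.82 (adjusted p = 0.00535) and CD45.1 held 23.3 ± 2.34 and 22.6 ± 4.14, while at 19.8 kb CD45.1 fell from 74.0 ± 10.8 to 33.95 ± 6.99 (adjusted p = 0.000645, and a log2 response of -0.87, short of 2-fold, with the width offset) and CD45.2 held 53.8 ± 12.96 and 41.8 ± 3.32. At Tgfbr2 90.6 kb, between genes in the deposited annotation and in an exon of Tgfbr2 in GENCODE, CD45.1 rose from 20.4 ± 4.92 to 42.3 ± 12.6 (adjusted p = 0.0210) and CD45.2 from 10.2 ± 3.11 to 25.1 ± 8.93 (adjusted p = 0.00303), in a peak that widened from 122 to 226 bp. With the width offset their adjusted p were 0.444 and 0.147. In an intron of Tgfbr2, at 9.0 kb, CD45.1 fell from 15.2 ± 2.80 to 4.73 ± 3.41 (adjusted p = 0.0276, and 0.194 with the width offset), and CD45.2 held 13.6 ± 2.35 and 11.04 ± 2.21.

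**Figure D5:**
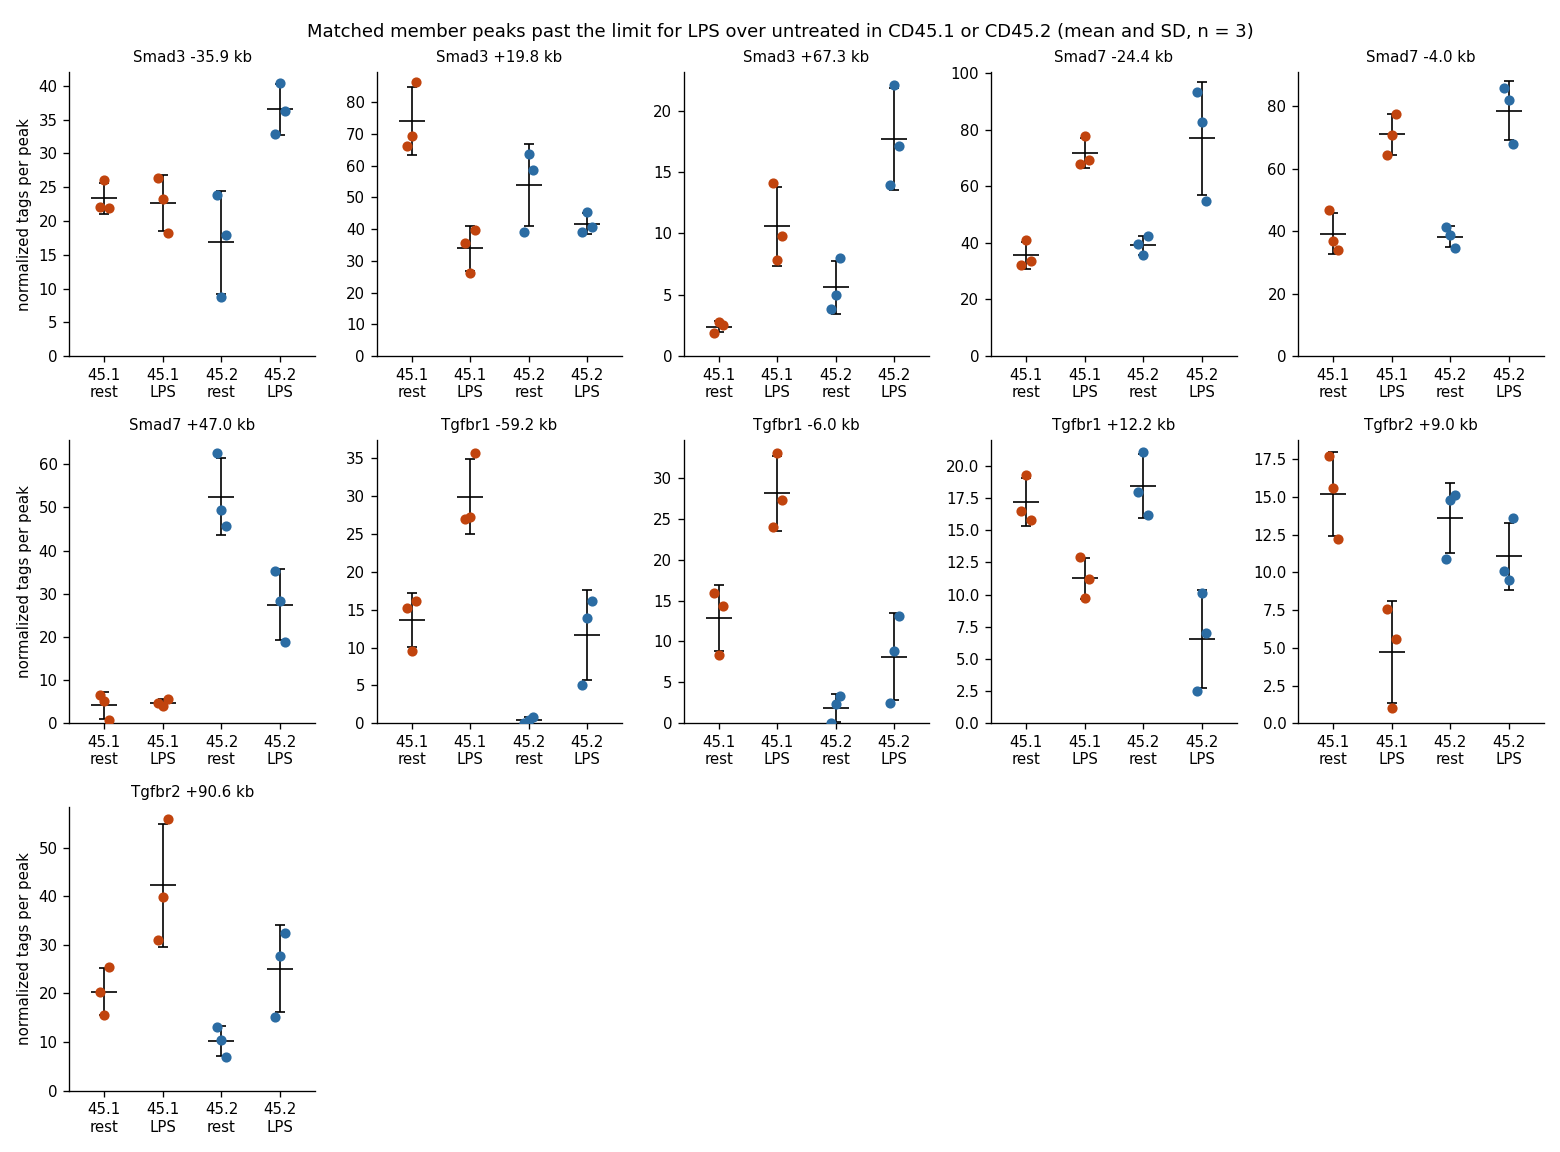
Normalized tags on the scale common to all 12 libraries (y axis) in the 11 matched member peaks past the limit for LPS over untreated in either population, by population and treatment (x axis), with points for mice and the mean and SD of 3. At Tgfbr1 -59.2 and -6.0 kb CD45.2 points leave the floor after LPS, and at Smad7 +47.0 kb CD45.2 points fall while CD45.1 points stay low.

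Whether the populations responded differently was tested by the interaction. No member peak of 73 passed (0.245% of all matched peaks did), and none did by edgeR. At an unadjusted p under 0.05, 4 member peaks of 73 were lower in the response of CD45.1 than of CD45.2. The share of all matched peaks at this limit was not counted, so the number is not a result about the members. These were Tgfbr1 -59.2 kb (difference of log2 responses -3.14, given no adjusted p by DESeq2's filter on low counts and an adjusted p of 0.0754 by edgeR), Smad3 -35.9 kb (-1.28, adjusted p = 0.551), Tgfbr2 -3.0 kb (-0.75, adjusted p = 0.693) and Smad3 -22.7 kb (-0.94, adjusted p = 0.819). In all, 17 of the 73 had no adjusted p by that filter. A response that passed in one population and not in the other is therefore not shown to differ between them.

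The wider pathway was followed through 54 further genes in 5 lists. At rest 49 were tested, and the summed locus was higher in CD45.1 for 10 and in CD45.2 for 5, where 7.35% and 7.46% of all loci were. By role, the ligands and their activators had 5 higher and 2 lower of 14, the receptors 2 and 2 of 9, the inhibitors and ubiquitin ligases 1 and 0 of 10, the target genes 2 and 1 of 10, and the other Smads, adaptors and coactivators 0 and 0 of 6. The median log2 difference of the 49 was -0.04, against 0.00 for all loci. After LPS, of 49 tested, 7 were higher in CD45.1 and 1 in CD45.2 (4.08% and 2.98% of all loci), with 3 and 0 of 14, 2 and 1 of 8, 1 and 0 of 10, 1 and 0 of 10, and 0 and 0 of 7 in the same order, and the median was -0.03.

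Some genes that store or release the ligand were higher in engrafted cells, and others were lower or did not pass. Unless given with the gene, adjusted p of the loci named here that passed were 1.09e-06 to 0.00542 at rest and 2.33e-08 to 0.0174 after LPS (DESeq2). Ltbp1, which encodes a latent TGF-beta binding protein, was at 104 ± 30.5 tags in CD45.1 against 37.1 ± 9.01 at rest (log2 difference 1.503), and 200.2 ± 64.25 and 103 ± 7.41 after LPS (0.95). Itgb8, a subunit of the integrin that activates latent ligand, differed by 0.90 at rest and 1.11 after LPS. The ligand gene Tgfb3 was higher in CD45.1 at rest (404 ± 13.8 and 271 ± 10.3 tags, log2 difference 0.58), whereas Tgfb2 was lower (84.6 ± 15.7 and 136 ± 11.3, -0.68). Ltbp3, another latent binding protein gene, was lower in CD45.1 at rest on 1 peak (1.79 ± 1.19 and 18.7 ± 1.77 tags, log2 difference -3.53). After LPS the Ltbp3 locus had 2 peaks, so the sum covers other regions, and it was level, with 27.3 ± 4.95 and 27.6 ± 6.09 tags. In the same list Nrros was higher in CD45.1 at rest (0.56, adjusted p = 0.00744, DESeq2) and did not pass after LPS. Ltbp2, Ltbp4, Lrrc32 and Itgav passed in neither treatment. Of the receptors, Acvr2a was higher in CD45.1 by 0.43 at rest and 1.23 after LPS and Acvrl1 by 0.53 and 0.81, and Bmpr1a was lower by 0.95 and 1.14. In the same list Eng was lower at rest by 1.29 (14.6 ± 2.79 and 35.1 ± 3.95 tags, adjusted p = 0.00909, DESeq2) and had no peak after LPS. The feedback inhibitor Pmepa1 was higher by 0.39 and 0.54 and the target gene Ctgf by 0.65 and 0.53. Of the other target genes, Cdkn2b was lower by 0.45 (adjusted p = 0.0250, DESeq2) and Id3 higher by 0.48 (adjusted p = 0.0133, DESeq2) at rest. Neither passed after LPS. Inhba, which encodes a chain of the ligand activin, was higher in CD45.1 in both treatments. At rest it held 39.4 ± 4.91 and 19.2 ± 13.2 tags on 1 peak (log2 difference 1.17, adjusted p = 0.0341, DESeq2). After LPS it held 35.4 ± 10.6 and 8.715 ± 3.27 tags on 3 peaks (log2 difference 2.12).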

How the data were processed

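ATAC-seq marks open chromatin by transposase insertion. The submitters' processing notes name bcl2fastq 2.17.1.14, Bowtie2, Picard 1.108, HOMER and the build mm9, without the role of each. Per the file headers, peaks were called by HOMER in each library alone, and tags were counted over the merged peaks of each treatment and assigned to the nearest transcription start. The deposited merged tables, 1 for untreated and 1 for LPS mice, give tags per peak in steps of 0.5, used here as estimated counts that the authors did not normalize and rounded to whole numbers for each test. The deposited peak list of each library, with the authors' HOMER score, served only to count the libraries that listed a peak. No depth beyond these counts was used, and values cover counting error and the spread between mice.

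Members and gene lists were chosen with earlier results of these data known. Populations were compared within each table by DESeq2 1.42.0 (Wald test, Benjamini-Hochberg adjustment over all peaks or loci, R 4.3.3) after keeping features with more than 10 tags in at least 1 library. A called peak had an adjusted p under 0.01 and over 4-fold, and other limits are an adjusted p under 0.05. Loci are tags summed over the peaks of a gene. Peaks overlapping reciprocally by at least 50% were fitted together over all 12 libraries for the response to LPS and its interaction with population. Peaks named are those past a limit, plus the peak with the smallest adjusted p of each other member and the strongest promoter peak of each gene. Scripts were tested on simulated data. Alternatives were edgeR 4.0.16, TMM factors, total tags, a higher count limit, a mouse block, another overlap, a peak width offset chosen after seeing the data, and leaving out each library. Mouse numbers are the replicate numbers of the sample titles. Equal numbers were taken as the same animal because both populations were sorted from the same brains, which the titles do not state. Deviations of libraries with equal numbers correlated at 0.0807 to 0.0873 at rest and -0.0665 to 0.149 after LPS. Those with unequal numbers correlated at -0.102 to 0.00105 and -0.159 to 0.117. Sequences come from the mm9 (NCBIM37) reference. Of 1 marker list a gene is not reported here.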

Additional observations from a re-analysis of the deposited data

How the results depend on the processing

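No result reversed its direction. Of the alternative values computed for the loci and for the peaks past a limit, 135 no longer passed, 1, the Tgfb1 locus after LPS by edgeR, passed in addition, and the rest kept their side of the limit. For member peaks at rest, those called higher in CD45.1 went from 2 to 0 with a mean count of at least 20 and to 1 with the replicate block (leaving out 1 library, 1 to 2). Those higher at an adjusted p under 0.05 went from 9 to 5 with total tags, the higher count limit or the block (5 to 8 without 1 library), and those higher in CD45.2 from 2 to 5 by edgeR (2 to 3). Loci that passed at rest went from 1 to 0 with total tags or the block (0 to 1). After LPS, called peaks went from 0 to 1 by edgeR for CD45.1 and from 1 to 0 for CD45.2 with total tags, the count limit, the block or any library left out. At an adjusted p under 0.05, CD45.1 went from 2 to 5 by edgeR, 1 with the count limit and 0 with the block (0 to 1), CD45.2 from 3 to 1 with total tags, the count limit or the block (0 to 2), and loci from 0 to 1 by edgeR. In the response to LPS, peaks that rose in CD45.1 went from 4 to 1 with total tags or the count limit and to 2 with an overlap of 25% or the width offset (1 to 5), and those that fell from 2 to 0 with total tags and 1 with the count limit or the offset (1 to 3), and under the offset these were peaks other than the 4 and 2. In CD45.2, those that rose went from 6 to 3 with total tags or the count limit (3 to 6), and those that fell from 2 to 0 with total tags and 1 with the count limit or the offset (0 to 2). The causes were not tested, except that the count limit removes peaks by its construction. Total tags moved the median of all features by 0.143 for peaks and 0.129 for loci after LPS and by -0.14 for the host response, on the log2 scale. At rest, Tgfbr1 -59.2 and -6.0 kb, Smad7 47.0 kb, Skil -10.9 kb, Tgfbr2 -3.0 and -163.2 kb and Smad3 73.5 kb passed at an adjusted p under 0.05 in every alternative that gave a value. Precision is limited by 3 mice a group and by the shallower LPS libraries.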
